A study of Mus musculus with 23 samples.

Results

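BDB (1,4-butanediol dibenzoate) and DOS (dioctyl succinate) are the proposed replacements for phthalate plasticizers in this series, and their arrays were compared directly with each other. The comparison used 7 of the 23 arrays of the series, which were 4 BDB arrays (replicates 1, 2, 3 and 4) and 3 DOS arrays (replicates 1, 3 and 4), chosen by their sample titles. DOS replicate 2 was not analysed here. TM4 cells, a mouse Sertoli line that is immortalized, had been treated for 48 hr with 100 μM BDB or 100 μM DOS in 1% DMSO, and the 4 vehicle arrays, which received 1% DMSO alone, are given beside them as a reference level only. All cells came from 1 line. The study's methods call the replicates biological, and the p-values measure the spread between them. RNA was labelled with Cy3 and hybridized to 1-colour Agilent mouse arrays, 1 sample per array.

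The compounds differ in a named part of their structure. BDB is a diol esterified with benzoic acid, and so carries aromatic rings, whereas DOS is succinic acid esterified with octanol and has no aromatic ring. Esters of this kind are known to be cleaved by carboxylesterases to an acid and an alcohol, which are then oxidized or conjugated. Phthalate monoesters are known as ligands of the peroxisome proliferator-activated receptors (PPARs), nuclear receptors that bind fatty acids, pair with RXR and switch on genes of fatty acid oxidation. Sertoli cells support the developing germ cells of the testis and are regarded as a main target of phthalates there.

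Levels are log2 intensities relative to the 75th percentile of the array, so that 0 is the level of that percentile and a difference of 1 is 2-fold. The 75th percentile was 222.4 to 289.6 intensity units on the BDB arrays and 218.1 to 256.4 on the DOS arrays, and 45.5% to 48.2% and 45.2% to 49.5% of the non-control spots were well above background. The number of arrays limits the precision, as an array has no read depth. BDB replicate 3 was out of range on 1 measure of the extraction software and DOS replicate 3 on 2, and both were kept. The BDB arrays lay in rows 1 and 3 of the slides and the DOS arrays in rows 2 and 4, so in this comparison row and compound cannot be told apart. The MEHP and DINCH arrays of the series lay in the same rows as BDB, and the DMSO and DOM arrays in the same rows as DOS. Row and compound therefore cannot be told apart for BDB beside DMSO either. Levels of these other groups are given where they bear on a result. The 6 spike-in RNAs that were well above background on all 7 arrays differed between the group means by -0.18 to -0.03 (log2), all lower with BDB. Their SD within a group was 0.38 to 0.82, a spread largely shared by BDB and DOS arrays of the same replicate number. Between such arrays the spike-in RNAs differed by -0.39 to 0.12.

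Of 55681 probes, 24166 were bright enough to test, and they covered 11929 named genes. A gene was called when a probe had an adjusted p below 0.05 (limma, Benjamini-Hochberg over all tested probes) and a difference over 1.5-fold. Only 5 genes were called (0.0419% of those tested), of which 3 (0.0251%) were lower and 2 (0.0168%) were higher with BDB than with DOS. The gene with the smallest p was Pdk4, a kinase that shuts off pyruvate dehydrogenase and a classic PPAR target. Another 4 called probes, 2 higher and 2 lower with BDB, had no gene name here, so that 9 probes were called in all (0.0372%). Among these 4, a lower probe was well above background on no BDB array and a higher probe on no DOS array. Both entered the test only through the group where they were high. The calls lay at the edge of the threshold, since all 9 called probes shared an adjusted p of 0.0453. From the values, the replicate numbers were taken to pair the arrays. The main fit, which gave the calls, SEs, intervals and p-values of genes, did not use this pairing. No gene was called with the replicate number as a block on replicates 1, 3 and 4, without BDB replicate 2 (smallest limma adjusted p 0.0858). Nor was any called in the log2 table that the authors deposited (0.0516). With the slide as a block the count was also 0 (0.115). Leaving out 1 array at a time left 0 genes called without BDB replicates 1, 2 or 4 or DOS replicates 1 or 4. Without BDB replicate 3 there were 2, which included 0 of the 5 genes. Without DOS replicate 3 there were 11, which included 1 of the 5, Pdk4. In the other direction, the replicate number as a random block on all 7 arrays gave 258 called genes, which included all 5. This alternative was chosen after seeing the data. The share of probes with an unadjusted limma p below 0.05 was 17.2% in the main fit. It was 20.4% with the block on replicates 1, 3 and 4 and 24.9% with the random block.

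Most genes differed little, and for most the data bound the difference. The 95% interval of BDB minus DOS lay within 2-fold in either direction for 93.6% of the tested probes and within 1.5-fold for 69.0%. The median SE of a difference was 0.13 and the median difference over genes was -0.03. Of the 11929 genes, 6739 had a negative difference and 5190 a positive one. Without adjustment 17.2% of the genes, taken by their brightest probe, had a p below 0.05, with BDB higher for 7.14% and lower for 10.1%. The BDB and DOS arrays did not overlap for 17.5% of the genes. These shares are the background against which the gene lists are read, and in the counts of list members higher and lower mean an unadjusted p below 0.05 in that direction. The Euclidean distance between the group means was 88.0 over all probes, which 7 of the 35 ways to label the arrays matched or exceeded (p = 0.2, exact permutation test). The smallest p that 4 against 3 arrays allow is 0.0286.

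**Figure D1:**
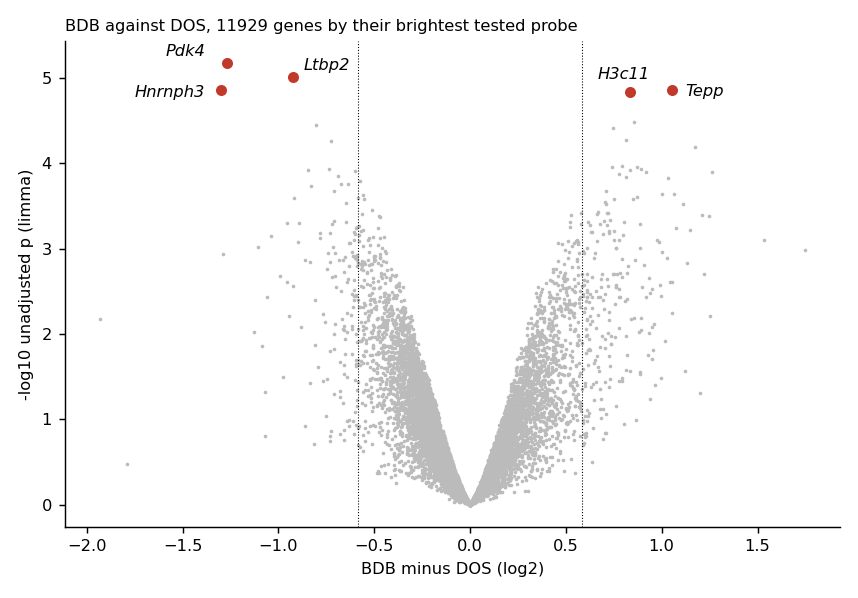
Difference between BDB and DOS (horizontal axis, log2, BDB minus DOS) and unadjusted p of the limma test (vertical axis, -log10) for each of 11929 genes by its brightest tested probe. Red points are the 5 called genes and dotted lines mark 1.5-fold. Pdk4, Ltbp2 and Hnrnph3 lie on the left and Tepp and H3c11 on the right, just above the cloud of genes that were not called.

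Pdk4 was at -1.51, -1.82, -1.82 and -1.59 on BDB arrays 1 to 4 and at -0.26, -0.65 and -0.35 on DOS arrays 1, 3 and 4. All BDB arrays lay far below all DOS arrays. It fell by 1.27 ± 0.13 (log2, SE, 95% interval -1.57 to -0.96), or 2.41-fold, with BDB relative to DOS (limma adjusted p = 0.0453). The 4 vehicle arrays ranged from -1.54 to -1.30, so the DOS arrays stood above the vehicle and the BDB arrays were close to it. The difference was -1.25 within slide 1 and -1.10 within slide 3, the slides that held both groups. The mean level was 2.17 on the MEHP arrays and -0.24 on the DINCH arrays, in the rows of BDB, and 2.01 on the DOM arrays, in the rows of DOS.

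Ltbp2, a matrix protein that binds the fibrils to which latent TGF-beta is anchored, was at -0.41, -0.53, -0.50 and -0.68 with BDB and at 0.49, 0.36 and 0.34 with DOS. The groups did not overlap, and the BDB arrays lay within the range of the vehicle arrays (-0.72 to -0.19). The gene fell by 0.93 ± 0.10 (1.9-fold, limma adjusted p = 0.0453) with BDB relative to DOS. The differences were -0.90 within slide 1 and -1.03 within slide 3. Mean levels were -0.79 with MEHP and -0.37 with DINCH, in the rows of BDB, and 0.49 with DOM, in the rows of DOS.

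H3c11, which encodes a histone H3, was at 0.15, 0.03, -0.01 and 0.10 with BDB and at -0.79, -0.85 and -0.67 with DOS. Here the BDB arrays stood apart from the vehicle (-0.89 to -0.57) and the DOS arrays lay within it. The gene rose by 0.83 ± 0.10 (1.78-fold, limma adjusted p = 0.0453) with BDB relative to DOS. In the rows of BDB, MEHP and DINCH had means of -0.74 and -0.91. Histone genes are near-identical copies of each other, so the probe may have read several of them.

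Hnrnph3, an RNA-binding protein that acts in splicing, and Tepp, a gene known from testis and prostate, were called on dim probes. Each entered the test only through the group where it was high. Hnrnph3 was at -5.51, -4.97, -5.02 and -4.98 with BDB, where no array was well above background, and at -3.94, -3.74 and -3.79 with DOS, where all 3 were. Its means were -5.12 and -3.82 (limma adjusted p = 0.0453). Counted from the lowest measurable signal, and only under the deposited background correction, it was at least 1.44-fold lower with BDB. Tepp was at -3.15, -2.93, -3.11 and -3.04 with BDB and at -4.29, -4.17 and -3.88 with DOS, where only 1 of the 3 arrays was well above background. Its difference was 1.06 ± 0.12 (log2, limma adjusted p = 0.0453), a value that rests in part on the 2 DOS arrays not well above background. With normexp in place of the deposited background correction the differences of these dim probes were -0.29 for Hnrnph3 and 0.17 for Tepp, and neither passed (adjusted p 0.195 and 0.392). In the vehicle, Hnrnph3 ranged from -5.33 to -3.82 and Tepp from -4.21 to -3.16.

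The list of named genes was filled up to 10 in each direction, by unadjusted p, with genes whose arrays did not overlap but whose adjusted p, between 0.0587 and 0.0682, missed the threshold. With BDB above DOS these were Arid5a, Myc, Rasgef1c, Ddit3, H2ac1, Trmt61b, Mob3b and Lins1, and with BDB below DOS they were Jarid2, Malat1, Tspan11, Slc17a9, Pdlim2, Tlr6 and Rnft2. Rasgef1c and Mob3b were well above background on 1 of the 3 DOS arrays, at levels between -4.44 and -4.04. Myc, the growth-promoting transcription factor, was at 3.0, 3.13, 2.95 and 3.19 with BDB and at 2.35, 2.32 and 2.29 with DOS, a difference of 0.75 ± 0.10. Arid5a, an RNA-binding protein known to stabilize Il6 mRNA, was at 5.09 to 5.43 with BDB and 4.33 to 4.49 with DOS, a difference of 0.86 ± 0.11. Malat1, a long nuclear RNA, was at 0.27 to 0.47 with BDB and 1.00 to 1.18 with DOS (-0.72 ± 0.10), and Jarid2, a partner of the Polycomb complex that methylates histone H3, was at -2.83 to -2.63 and -2.10 to -1.85 (-0.80 ± 0.10). With normexp the differences of the dimmer of these genes were smaller, at 0.10 for Rasgef1c, 0.07 for Mob3b, 0.38 for Trmt61b, -0.36 for Jarid2 and -0.34 for Slc17a9.

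**Figure D2:**
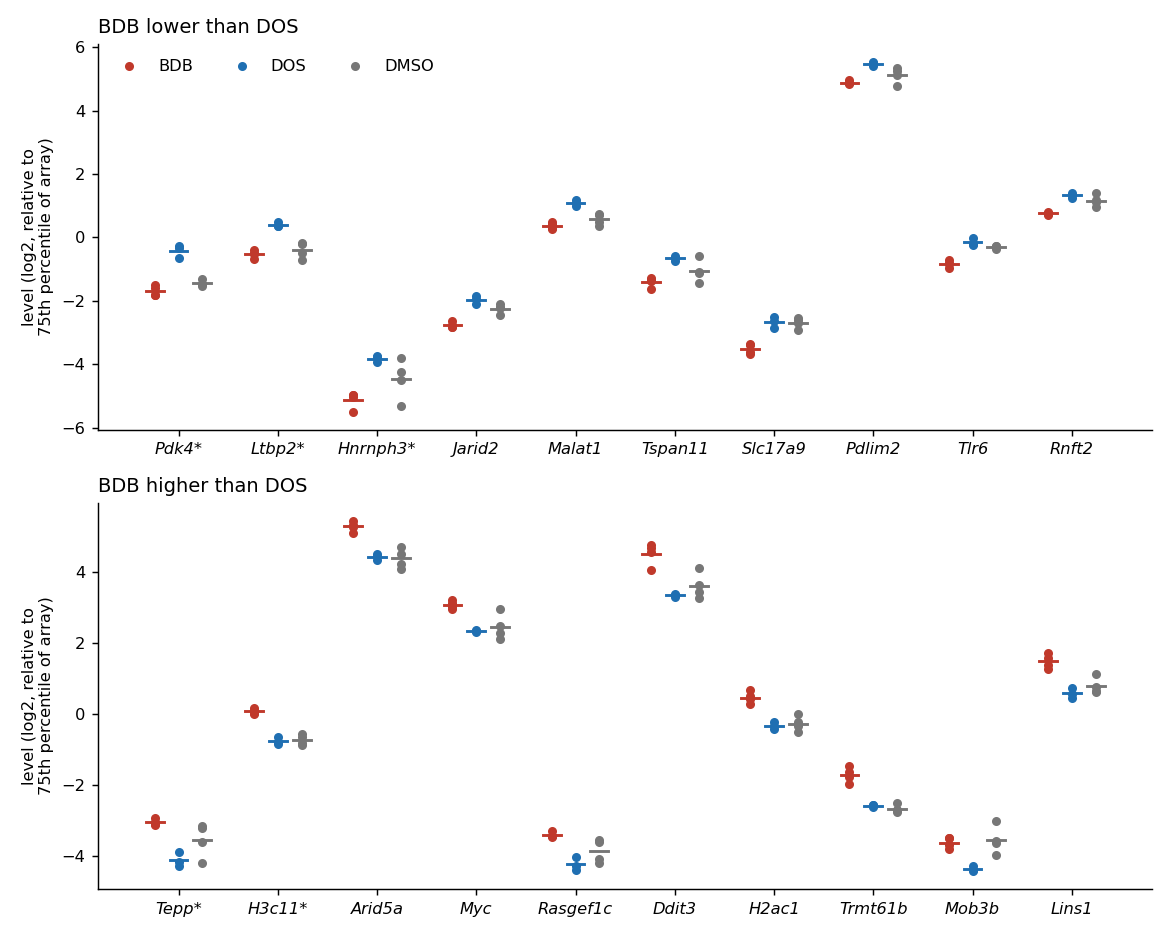
Level of the 5 called genes (starred) and the genes of next smallest p that fill each direction up to 10, on every BDB (red), DOS (blue) and DMSO (grey) array, in log2 relative to the 75th percentile of the array. Each point is 1 array and each bar a group mean. Pdk4, Ltbp2 and Malat1 show DOS above the other groups, whereas Arid5a, Myc, H2ac1, H3c11 and Trmt61b show BDB above them.

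Direct tests against the vehicle gave no called gene for either compound (0% of 11968 genes for BDB and 0% of 11935 for DOS; limma, with 3495 and 1725 probes at an unadjusted p below 0.05 and smallest adjusted p-values of 0.0682 and 0.339). Both tests share the 4 DMSO arrays, so their values are only set side by side. The DMSO arrays lay in the slide rows of DOS, so in BDB minus DMSO, unlike DOS minus DMSO, row and compound cannot be told apart. Pdk4 differed from the vehicle by -0.24 with BDB and 1.02 with DOS, and Ltbp2 by -0.13 and 0.80. Aldh1a1 differed by 0.12 and 0.79, and its levels were -1.72 to -1.40 with BDB, -1.0 to -0.89 with DOS and -1.80 to -1.64 with DMSO. The reverse held for H3c11 (0.80 with BDB and -0.03 with DOS), Arid5a (0.90 and 0.05), Trmt61b (0.97 and 0.10) and Ddit3 (0.90 and -0.27).

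**Figure D3:**
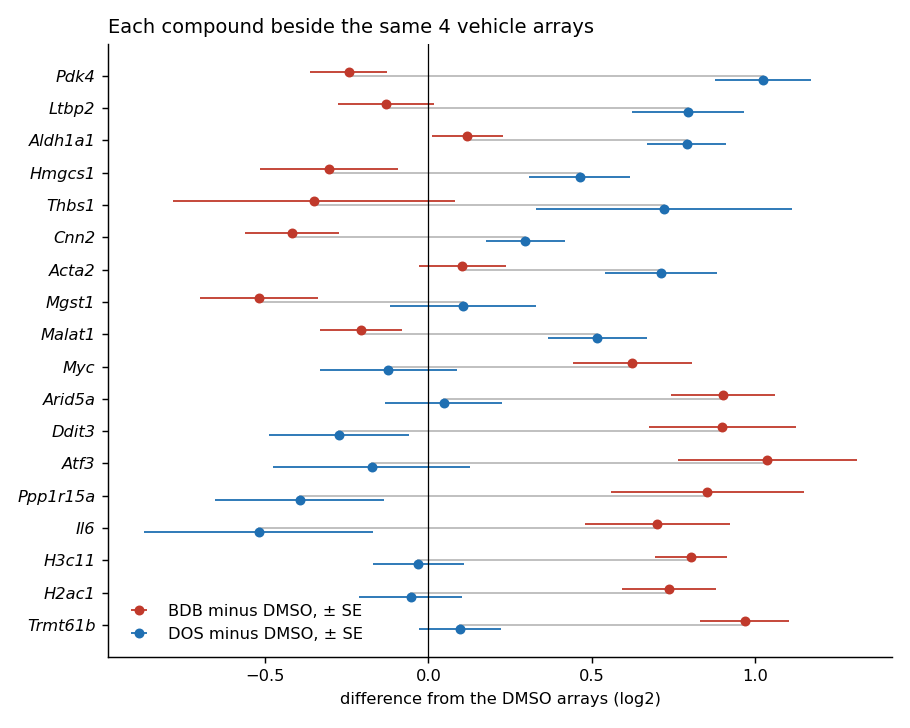
Difference of each compound from the 4 DMSO arrays (log2, points with SE bars) for 18 genes, BDB in red and DOS in blue. DOS is the compound away from 0 for Pdk4, Ltbp2, Aldh1a1 and Acta2, and BDB for Arid5a, Ddit3, H3c11, H2ac1 and Trmt61b. None of these differences from the vehicle passed the test. The DMSO arrays lay in the slide rows of DOS, so for BDB row and compound cannot be told apart.

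Among 23 tested PPAR targets, which carry, activate and oxidize fatty acids, 1 was called (Pdk4) and 0 of the rest. At an unadjusted p below 0.05, 5 were lower and 2 higher with BDB, and the median difference was -0.13 against -0.03 over all genes. That is 21.7% lower against 10.1% of all genes, and 8.70% higher against 7.14%. The 2 higher genes, named after their values were seen, were Plin4 (0.59 ± 0.22) and Acot2 (0.38 ± 0.17). Cpt1a, the enzyme that passes fatty acids into mitochondria, was at 2.09, 2.00, 2.31 and 2.13 with BDB and at 2.54, 2.79 and 2.80 with DOS. All BDB arrays lay below all DOS arrays, and the difference was -0.58 ± 0.12 (limma adjusted p = 0.0879). Slc25a20, which carries acylcarnitines across the inner membrane, differed by -0.31 ± 0.10. Angptl4, a secreted inhibitor of lipoprotein lipase and another PPAR target, overlapped between the groups (3.01 to 4.30 with BDB and 4.21 to 4.91 with DOS, -0.68 ± 0.31), and its difference was -0.39 without BDB replicate 1 and -1.07 on the slides with both groups. Of the receptors themselves, Pparg differed by 0.00 ± 0.10 (95% interval -0.23 to 0.23), Ppara by 0.12 ± 0.13 (-0.18 to 0.43) and Ppard by -0.15 ± 0.10 (-0.38 to 0.07).

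The 22 enzymes of cholesterol biosynthesis all had a negative difference, against 6739 of all 11929 genes, and none was called. At an unadjusted p below 0.05, 10 were lower with BDB and 0 higher, that is 45.5% against the background of 10.1%, and the median was -0.33. Under 22 alternative settings the median lay between -0.41 and -0.20, and it was -0.20 without DOS replicate 1. Hmgcs1, which makes the HMG-CoA that enters the pathway, was at 5.25, 4.38, 4.99 and 4.5 with BDB and at 5.70, 5.36 and 5.58 with DOS. The groups did not overlap, and the difference was -0.77 ± 0.21 (limma adjusted p = 0.138). Sqle, the epoxidase that opens the sterol branch, differed by -0.37 ± 0.11, and the sterol reductase Tm7sf2 by -0.56 ± 0.16. Hsd17b7, a ketosteroid reductase of the pathway, differed by -0.56 ± 0.17 with overlapping arrays. Of the enzymes measured by qPCR in the study, Mvd differed by -0.55 ± 0.22, Pmvk by -0.29 ± 0.21 and Fdps by -0.12 ± 0.11, and their groups overlapped. Leaving out 1 array moved Pmvk between -0.47 (without DOS replicate 3) and -0.04 (without DOS replicate 1), and Fdps between -0.18 (without BDB replicate 1) and -0.05 (without DOS replicate 1). The list's median difference from the vehicle was -0.01 with BDB and 0.34 with DOS.

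Genes of this pathway are known targets of SREBP2, which binds sterol response elements together with the CCAAT-binding factor NF-Y. Promoters from RefSeq (GRCm38.p6) were matched for 17 of the 22 enzymes, and the 250 bases before the start held CCAAT, read on either strand, in 15 of the 17 (88.2%), against 33.8% of all 32851 promoters and 41% of those of tested genes. The 15 with CCAAT had a median difference of -0.25 and the others one of -0.37. The sterol element TCACNCCAC was in 1 of the 17 (5.88%, against 1.05% of all promoters). The stretches of Hmgcs1, Tm7sf2 and Hsd17b7 are shown because these were among the 4 enzymes with the smallest p, with CCAAT or its reverse complement and the sterol element in capitals. Each stretch is written 5′ to 3′ and ends at the base before the start. Hmgcs1 lies at chr13:119690104-119690350 on the plus strand, Hsd17b7 at chr1:169969206-169969380 on the minus strand and Tm7sf2 at chr19:6067851-6067970 on the minus strand.
Hmgcs1: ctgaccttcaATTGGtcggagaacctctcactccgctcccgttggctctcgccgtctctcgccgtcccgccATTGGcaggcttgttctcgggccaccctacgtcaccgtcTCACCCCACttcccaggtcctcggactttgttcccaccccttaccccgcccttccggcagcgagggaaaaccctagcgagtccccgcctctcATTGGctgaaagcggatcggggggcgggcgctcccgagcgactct
Hsd17b7: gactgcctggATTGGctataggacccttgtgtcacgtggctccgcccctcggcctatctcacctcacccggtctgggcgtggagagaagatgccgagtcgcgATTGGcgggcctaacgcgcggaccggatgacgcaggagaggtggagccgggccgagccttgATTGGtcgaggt
Tm7sf2: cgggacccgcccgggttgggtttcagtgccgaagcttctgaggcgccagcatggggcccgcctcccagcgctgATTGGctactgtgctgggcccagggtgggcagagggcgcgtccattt

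Of 18 enzymes of fatty acid synthesis 3 were lower (16.7% against 10.1% of all genes) and 0 higher at an unadjusted p below 0.05. Fasn, the fatty acid synthase, was at -1.17, -1.87, -1.24 and -1.70 with BDB and at -0.58, -0.81 and -1.15 with DOS (-0.65 ± 0.20), and Me1 and Scd2, which supply NADPH and desaturate fatty acids, differed by -0.25 ± 0.09 and -0.31 ± 0.13.

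**Figure D4:**
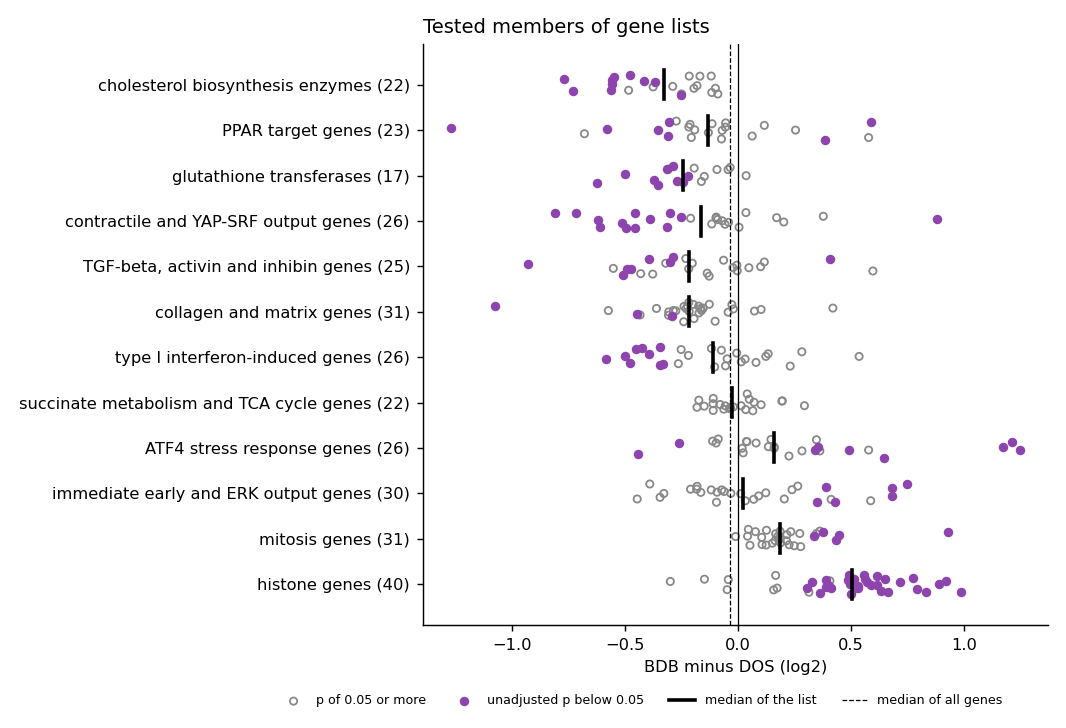
BDB minus DOS (horizontal axis, log2) of every tested member of 12 gene lists, with the number of members in brackets. Filled points have an unadjusted p below 0.05, black bars are the medians of the lists and the dashed line is the median of all genes (-0.03). Cholesterol enzymes lie to the left with a median of -0.33 and histone genes to the right with a median of 0.51.

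ATF4 is the factor translated when eIF2 is phosphorylated, and of 26 stress genes that it drives none was called. At an unadjusted p below 0.05, 7 were higher and 2 lower with BDB (26.9% higher against 7.14% of all genes), and the median was 0.16, or 0.10 with median scaling. The enzymes of amino acid synthesis in the list, named after their values were seen, differed little: Asns by -0.10 ± 0.13, Psat1 by 0.04 ± 0.10 and Phgdh by 0.04 ± 0.12. Among the lower genes was the related factor Atf5 (-0.44 ± 0.12), also named after its values were seen. Ddit3, the stress factor CHOP, was at 4.54, 4.67, 4.05 and 4.75 with BDB and at 3.33, 3.37 and 3.29 with DOS. Ppp1r15a, which directs the dephosphorylation of eIF2, was at 6.12, 6.55, 5.67 and 6.68 and at 5.0, 4.91 and 5.11. Atf3, a stress-induced repressor, was at 3.42, 3.73, 2.93 and 3.61 and at 2.59, 1.92 and 2.13. In all 3 genes BDB replicate 3 was the lowest BDB array and still above every DOS array. Their differences were 1.17 ± 0.16, 1.25 ± 0.23 and 1.21 ± 0.22 (limma adjusted p = 0.062, 0.0832 and 0.0832), and the vehicle arrays ranged from 3.25 to 4.10, from 4.96 to 6.03 and from 1.96 to 3.08. Trib3, a pseudokinase induced by CHOP, differed by 0.65 ± 0.14. Of 23 genes of the unfolded protein response 1 was higher and 4 lower (4.35% and 17.4%, against 7.14% and 10.1% of all genes). Dnajb9 differed by -0.44 ± 0.10 and Sec61b by -0.32 ± 0.10.

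ATF4 is known to bind a composite element with C/EBP factors. Promoters were matched for 24 of the 26 genes, and the letters TGATGCAA, on either strand of the 250 bases before the start, were in 6 of the 24 (25%), against 0.791% of all promoters. The list was drawn up as ATF4 targets, so the element in it was not independent of the choice of genes. The promoter of Atf3 is shown as that of the member with the element and the smallest p, and that of Ppp1r15a because it held the cyclic AMP response element TGACGTCA (1.55% of all promoters, 3.06% of those of tested genes and 4.17% of those of the list). Capitals mark the elements. Atf3 lies at chr1:191183334-191183453 on the minus strand and Ppp1r15a at chr7:45526269-45526388 on the minus strand, and each stretch ends at the base before the start.
Atf3: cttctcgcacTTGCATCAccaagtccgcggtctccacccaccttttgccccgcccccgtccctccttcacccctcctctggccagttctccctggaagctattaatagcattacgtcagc
Ppp1r15a: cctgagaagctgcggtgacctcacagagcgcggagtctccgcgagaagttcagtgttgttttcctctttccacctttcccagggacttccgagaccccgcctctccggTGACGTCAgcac

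Of 30 immediate early and ERK output genes 6 were higher and 0 lower at an unadjusted p below 0.05. That is 20% higher against 7.14% of all genes, and the median was 0.02. The 6 were led by Myc, and by Fosl1, a subunit of AP-1, at 0.10 to 0.49 with BDB and -0.63 to -0.06 with DOS (0.68 ± 0.17). Among 21 p53 targets 5 were higher and 4 lower (23.8% and 19.0%, against 7.14% and 10.1% of all genes), so the list was split. Gadd45a, a growth arrest gene, was at 5.70, 6.32, 5.59 and 6.27 with BDB and 4.93, 4.76 and 4.90 with DOS (1.11 ± 0.19, limma adjusted p = 0.0757), while Trp53inp1 and Sesn1 had differences of -0.73 ± 0.16 and -0.53 ± 0.12. Of 20 chemokine and inflammatory genes 4 were higher and 2 lower (20% and 10%, against 7.14% and 10.1% of all genes). Il6, a cytokine, was well above background on all 4 BDB arrays (-3.85 to -3.28) and on none of the 3 DOS arrays (-5.55 to -4.27). It entered the test only through the BDB arrays (means -3.60 and -4.82, limma adjusted p = 0.104). Counted from the lowest measurable signal, under the deposited background correction, it was at least 1.67-fold higher with BDB. Ptgs2, the inducible cyclooxygenase, differed by 0.71 ± 0.17.

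Of 26 genes of the contractile cytoskeleton and of YAP and serum response factor output none was called, 12 were lower and 1 higher with BDB at an unadjusted p below 0.05 (46.2% lower against 10.1%), and the median was -0.16. With the slide as a block the median was -0.07. The 1 higher gene, named after its values were seen, was the YAP target Ccn2, a matricellular growth factor, with the largest difference of the list in size (0.88 ± 0.27). Cnn2, a calponin that binds actin, was at 4.40, 3.88, 4.43 and 4.13 with BDB and at 5.0, 4.92 and 4.84 with DOS. Vcl, the focal adhesion protein vinculin, was at 2.67, 2.21, 2.77 and 2.39 and at 2.97, 3.31 and 3.11. Acta2, smooth muscle actin, was at 4.94, 5.0, 5.35 and 5.11 and at 5.50, 5.99 and 5.63. None of these groups overlapped, and the differences were -0.71 ± 0.15, -0.62 ± 0.15 and -0.61 ± 0.15 (limma adjusted p = 0.0905, 0.118 and 0.114). The vehicle arrays ranged from 4.54 to 4.71 for Cnn2, from 2.53 to 3.21 for Vcl and from 4.87 to 5.22 for Acta2. Actg2, an actin of visceral smooth muscle, differed by -0.49 ± 0.13.

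Many of these genes are known targets of serum response factor, which binds the CArG box. Of 22 list members with a promoter, 5 (22.7%) held a CArG box in the 250 bases before the start, against 1.47% of all promoters and 1.49% of those of tested genes. The 5 (Acta1, Cnn2, Myl9, Srf and Vcl) had a median difference of -0.62 and the 17 without the box one of -0.09. The list was drawn up as serum response factor and YAP targets, so the box was not independent of it. The stretches of Cnn2 and Vcl are shown because both are in the list's 4 genes of smallest p and hold the same box, in capitals. Cnn2 lies at chr10:79988480-79988599 on the plus strand, ending at the base before the start, and Vcl at chr14:20929161-20929280 on the plus strand, from 237 to 118 bases before it.
Cnn2: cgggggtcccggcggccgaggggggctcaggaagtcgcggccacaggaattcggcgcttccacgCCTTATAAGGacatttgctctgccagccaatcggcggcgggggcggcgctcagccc
Vcl: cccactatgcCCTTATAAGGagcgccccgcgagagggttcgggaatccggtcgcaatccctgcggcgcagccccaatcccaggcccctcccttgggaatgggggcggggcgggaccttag

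Matrix and TGF-beta genes had medians on the same side. Of 25 genes of the TGF-beta, activin and inhibin family 1 was called (Ltbp2), and 7 were lower and 1 higher at an unadjusted p below 0.05. That is 28% lower and 4% higher, against 10.1% and 7.14% of all genes. The median was -0.22, or -0.14 with normexp. Id3, a target of BMP signalling, was at -0.58, -0.47, -0.21 and -0.24 with BDB and at 0.04, 0.22 and 0.04 with DOS (-0.47 ± 0.12). The ligand Tgfb3 differed by -0.49 ± 0.13 and the secreted binding protein Fstl1 by -0.30 ± 0.09. Of 31 collagen and matrix genes 3 were lower and 0 higher, close to the background of 10.1%. A negative difference was seen in 28 of the 31, against 6739 of all 11929 genes, and the median was -0.21. It was -0.11 without DOS replicate 3, -0.13 without BDB replicate 1 and -0.33 without DOS replicate 1. Thbs1, the thrombospondin that activates latent TGF-beta, had the widest difference of that list (-1.07 ± 0.46) with overlapping arrays (3.46 to 5.40 with BDB and 4.94 to 6.30 with DOS). Among 18 metalloproteinase and inhibitor genes 7 were lower and 1 higher (38.9% and 5.56%, against 10.1% and 7.14% of all genes). Timp2, an inhibitor of metalloproteinases, was at 6.81 to 7.04 with BDB and 7.34 to 7.62 with DOS (-0.58 ± 0.11).

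Genes that handle the esters and their fragments were measured next. Of 28 ester hydrolysis genes on the array 6 were bright enough to test, and 0 of the 6 had an unadjusted p below 0.05. Their differences ran from -0.18 to -0.01, and the 95% intervals of all 6 lay within 1.5-fold. Of 22 succinate and TCA cycle genes 0 had an unadjusted p below 0.05, with differences of -0.18 to 0.29 and intervals within 1.5-fold for 21. Of 5 tested genes that conjugate benzoate and other acids 0 did, with differences of -0.18 to 0.21. Of 13 alcohol and aldehyde oxidation genes 3 were lower with BDB and 0 higher (23.1% lower against 10.1% of all genes). Aldh1a1, which oxidizes retinaldehyde, differed by -0.67 ± 0.11 (limma adjusted p = 0.0689, and by -0.45 with normexp) and its arrays did not overlap, and Adh5, the glutathione-dependent formaldehyde dehydrogenase, differed by -0.28 ± 0.10. Among 7 genes of retinoic acid metabolism Dhrs3, a retinaldehyde reductase, differed by -1.06 ± 0.27 (-0.35 to 0.56 with BDB and 0.86 to 1.81 with DOS).

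Of 17 glutathione transferases 9 were lower with BDB at an unadjusted p below 0.05 (52.9% against 10.1%), 0 were higher and none was called. The median was -0.24, and between -0.30 and -0.19 under the alternatives. The membrane-bound Mgst1 was at -1.18, -1.25, -0.99 and -1.05 with BDB and -0.60, -0.62 and -0.25 with DOS. Mgst2 was at 3.98, 4.00, 4.02 and 4.01 and at 4.39, 4.33 and 4.34. These groups were tight and separate, and the differences were -0.62 ± 0.13 and -0.35 ± 0.09. Gsta4, which conjugates lipid aldehydes, differed by -0.31 ± 0.15 with overlapping arrays, and by -0.19 without BDB replicate 1. NRF2 targets as a whole gave 2 higher and 1 lower of 26 (7.69% and 3.85%, against 7.14% and 10.1% of all genes). The adaptor Sqstm1 led the list at 0.49 ± 0.11. In the aryl hydrocarbon receptor list, Ahr itself differed by -0.43 ± 0.15. It was the 1 of 8 genes with an unadjusted p below 0.05 (12.5% lower against 10.1% of all genes). Of 14 metallothionein and zinc transporter genes 1 was lower and 0 higher (7.14% lower against 10.1% of all genes).

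The histone genes as a group were chosen after their values were seen, so no test is given for them. All genes with the symbols of the H1f, H2ac, H2bc, H3c and H4c series and H4f16 were taken, 50 on the array and 40 of them tested. The BDB arrays lay wholly above the DOS arrays for 26 of the 40 and wholly below for 0, against 6.77% and 10.8% of all genes, and the median difference was 0.51 (0.45 to 0.63 under the alternatives). The median level of the 40 genes was 2.68, 2.48, 2.43 and 2.53 on BDB arrays 1 to 4 and 2.31, 2.23 and 2.26 on DOS arrays 1, 3 and 4. Every BDB array stood above all 19 other arrays of the series, of which the highest was at 2.31. The MEHP and DINCH arrays, which lay in the same slide rows as BDB, were at 2.01 to 2.25, the DMSO arrays at 2.16 to 2.24 and the DOM arrays at 0.71 to 1.55. Most histone mRNAs are made in S phase and end in a stem-loop in place of a poly(A) tail, and probes for such close copies are not independent.

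**Figure D5:**
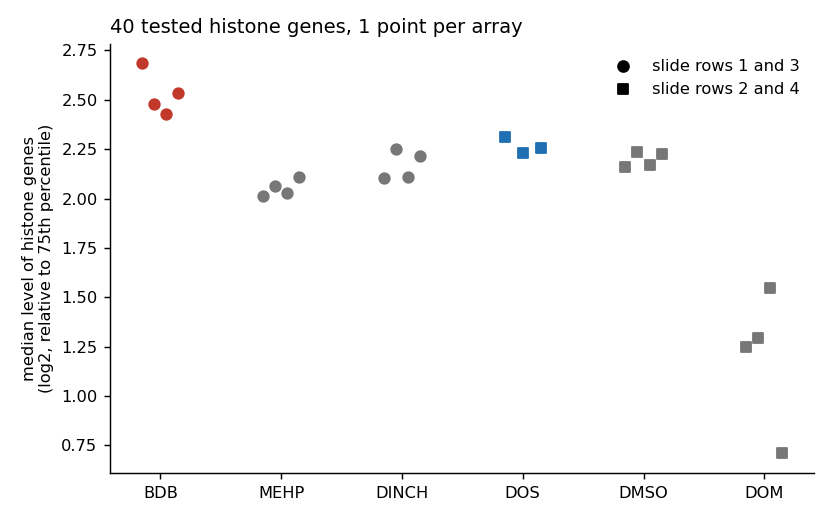
Median level of the 40 tested histone genes on each of the 23 arrays (log2 relative to the 75th percentile), by group, with circles for slide rows 1 and 3 and squares for rows 2 and 4. The 4 BDB arrays, at 2.43 to 2.68, lie above all others, including the MEHP and DINCH arrays of the same rows.

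Of 42 DNA replication genes 4 were higher and 0 lower with BDB at an unadjusted p below 0.05, with a median of 0.10. The share higher, 9.52%, was close to the 7.14% of all genes. Orc2, a subunit of the origin recognition complex, differed by 0.59 ± 0.14. Of 31 mitosis genes 5 were higher and 0 lower (16.1% against 7.14%), and 30 had a positive difference, against 5190 of all 11929 genes. The median was 0.19, which was 0.12 without BDB replicate 1 and 0.31 on the slides with both groups. Top2a, the topoisomerase of dividing cells, was at 3.58 to 3.77 with BDB and 3.06 to 3.41 with DOS (0.38 ± 0.12), and Foxm1, a transcription factor of the G2 phase, differed by 0.45 ± 0.15. The vehicle arrays ranged from 3.28 to 3.81 for Top2a and so reached over both groups.

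Of 26 genes induced by type I interferon 9 were lower and 0 higher with BDB at an unadjusted p below 0.05 (34.6% against 10.1%), with a median of -0.11, which was -0.06 with the slide as a block and -0.18 without BDB replicate 4. Ifi35 was at 1.65, 1.59, 1.63 and 1.66 with BDB and at 2.07, 2.13 and 2.14 with DOS (-0.48 ± 0.09, limma adjusted p = 0.0832). Parp14, Gbp3 and the ubiquitin-like Isg15 differed by -0.50 ± 0.11, -0.42 ± 0.12 and -0.34 ± 0.10. In these 4 genes the BDB arrays lay below the DOS arrays without overlap. The median difference of the list from the vehicle was -0.31 with BDB and -0.14 with DOS.

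Among 30 genes of glycolysis and lactate 2 were higher and 5 lower (6.67% and 16.7%, against 7.14% and 10.1% of all genes). The list held members on either side. Hexokinase Hk2 was at 1.55 to 2.08 with BDB and 0.78 to 1.21 with DOS (0.80 ± 0.16), whereas Pdk1, which acts on the same complex as Pdk4, differed by -0.50 ± 0.12. Of 14 hypoxia response genes 3 were lower and 1 higher (21.4% and 7.14%, against 10.1% and 7.14% of all genes). The ankyrin repeat gene Ankrd37 differed by -0.71 ± 0.12 and the mitophagy receptor Bnip3 by -0.57 ± 0.11. Of 14 circadian clock genes 3 were higher and 0 lower (21.4% higher against 7.14% of all genes). Nfil3, a repressor of the clock, was at 4.37, 4.69, 4.31 and 4.73 with BDB and 3.74, 3.42 and 3.65 with DOS (0.92 ± 0.14, limma adjusted p = 0.0665), and Ciart, another repressor, differed by 1.04 ± 0.25. The heat shock list had 1 higher and 4 lower of 17 (5.88% and 23.5%, against 7.14% and 10.1% of all genes). It included the co-chaperone Bag3 at -0.43 ± 0.12.

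The cells carried part of the Sertoli marker list: of 28 markers 13 were well above background on all 7 arrays, among them Gata4, Nr5a1, Dmrt1, Sox9 and Dhh, and 12 were not on any, among them Wt1, Amh, Fshr and Cldn11. Of the 14 tested Sertoli markers 2 were lower with BDB (14.3% against 10.1% of all genes) and 0 higher. They were Clu at -0.47 ± 0.17 and Sox9, the factor that sets Sertoli fate, at -0.28 ± 0.12. Clu was well above background on only 3 of the 4 BDB arrays. It therefore entered the test only through the DOS arrays, where it was higher. In bulk RNA fewer cells of a type and less RNA per cell cannot be told apart. Of 6 peritubular myoid markers 4 were tested, and their summed level was 5.49 to 5.80 on the BDB arrays, 5.96 to 6.30 on the DOS arrays and 5.34 to 5.64 on the DMSO arrays, while Myh11 and Des, which define that cell type, were not well above background on any of the 7. Of the 4, Acta2 was the brightest, and Smtn, a smooth muscle actin-binding protein, went the other way (mean 3.29 with BDB and 3.08 with DOS, 0.20 ± 0.12). These markers (Acta2, Actg2, Cnn1 and Smtn) are also contractile genes, and their part in that list was not tested. Of 10 germ cell markers 8 were not above background on any of the 7 arrays, as were 5 of the 7 Leydig markers on the array, 3 of 6 macrophage and leukocyte markers and 3 of 6 endothelial markers. Well above background on all 7 arrays were Prm1 and Tnp1 of the germ cell list, Cyp17a1 of the Leydig list (mean 3.87 with BDB and 3.86 with DOS), Itgam, Csf1r and Cd14 of the macrophage list, and Kdr, Pecam1 and Cd34 of the endothelial list. Cd34 was at a mean of 6.27 with BDB and 5.99 with DOS and was the 1 of these with an unadjusted p below 0.05. Junction genes of the blood-testis barrier had 2 higher and 1 lower of 17 (11.8% and 5.88%, against 7.14% and 10.1% of all genes). Among them was Cldn12, a claudin, at 0.55 ± 0.14. Of 16 steroid, thyroid and retinoid receptors 4 were lower and 0 higher (25% lower against 10.1% of all genes). The estrogen receptor Esr1 differed by -0.55 ± 0.24 and the thyroid receptor Thra by -0.39 ± 0.14. Among 14 PPAR, RXR and coregulator genes 2 were lower and 1 higher (14.3% and 7.14%, against 10.1% and 7.14% of all genes). The coactivators Ncoa2 and Ncoa3 differed by -0.47 ± 0.14 and -0.38 ± 0.12.

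Of 17 common reference genes the 95% intervals of 16 lay within 1.5-fold. Hprt, the reference gene of the study, was at 5.20 to 5.41 with BDB and 5.11 to 5.53 with DOS and differed by -0.01 ± 0.12.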

How the data were processed

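Cy3-labelled RNA of TM4 cells was measured on Agilent 1-colour arrays. Per the file headers, the deposited spot intensities were made by the authors with Feature Extraction 11.5.1.1, which subtracted background and marked outlier spots, with no scaling across arrays. A second deposited file holds log2 values that the authors had set to the 75th percentile and centred by probe median, and it served as an alternative. The study's methods left out a DOS replicate for high background without giving its number. The sample titles held no DOS replicate 2. Here log2 of the processed intensity (floor 1) had the 75th percentile of the array's non-control spots subtracted. Outlier spots were dropped, and repeated spots were averaged by probe. Probes were named through RefSeq accessions (26582 of 55681 probes, 20145 symbols). Positions of probes were not used, as the array design and the annotation differ in build.

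The test took probes that reached the 20th percentile and were well above background throughout the BDB or the DOS arrays. The 4 BDB and 3 DOS arrays alone were fitted with limma 3.58.1 in R 4.3.3 (with the package data.table, version 1.17.8). This main fit did not pair the arrays, and it used Benjamini-Hochberg adjustment, a threshold of 0.05 and a limit of 1.5-fold. A gene takes the value of its brightest probe. Lists are described by counts and medians with no set test. The fits were tested on simulated data.

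Named genes were the 10 of largest difference in each direction among called genes with separate arrays, filled up by unadjusted p, genes of the study's qPCR, PPARs, Aldh1a1 and Dach2 (not bright enough to test), and up to 4 members of each of 40 lists by p. The members and lists were chosen with earlier results of these data known. Acta1, Myl9, Srf and the markers in the paragraph on cell types were named as parts of counts, and the histone genes were chosen after their values were seen.

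The labels share replicate numbers. Deviations of same-numbered BDB and DOS arrays from their group means correlated by 0.42, 0.23 and 0.23 for replicates 1, 3 and 4. Arrays of unlike number correlated by -0.30 to 0.09. All 3 values were above 0.1, so the numbers were taken to pair the arrays, on these values and not on the labels. The same-numbered arrays of replicates 1 and 4 also shared a slide, so for them number and slide cannot be told apart. Alternatives were quantile or median scaling, normexp (offset 50), other filters, slide, replicate or column blocks, all 6 groups in 1 fit, outlier spots kept, 1 probe per gene, a variance trend, the authors' table and leaving out each array. Motifs were searched on both strands of the 250 bases before RefSeq starts. Cell viability and qPCR were not analysed here, and results for a few named genes are not reported here.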

Additional observations from a re-analysis of the deposited data

Results flagged for a closer look

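Within groups of 4 arrays, 68 sets of values were checked for 1 array far from the other 3, a check that marks about 1 in 20 by chance, and 5 were marked. Hnrnph3 was at -5.51 on BDB replicate 1 and at -5.02 to -4.97 on the others, all on spots not well above background. Ppara was at 0.15 on BDB replicate 2 and at 0.23 to 0.25 on the others, a small gap. Ppard was at -2.22 on DMSO replicate 4 and at 2.12 to 2.36 on the other vehicle arrays, so its difference from the vehicle (1.08 with BDB and 1.24 with DOS) rests on that array. Hprt was at 5.62 on DMSO replicate 1 and at 5.32 to 5.36 on the others. On DMSO replicate 3, 51.4% of the spots were well above background, against 46.5% to 47.1% on the other vehicle arrays. The vehicle arrays enter no test between BDB and DOS other than the alternative fit of all 6 groups.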

How the results depend on the processing

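The direction of the 5 called genes held under all 22 alternatives, but their call did not. In these genes the BDB and DOS arrays did not overlap, so leaving out arrays could not reverse the direction. The count of called genes was 0 under quantile scaling, no filter on dim probes, detection on 1 of the 7 arrays, the slide as a block, only the slides with both groups, the replicate block, the column of the slide as a block and the authors' table. It was 79 with median scaling (35 higher and 44 lower with BDB), 76 with normexp (54 and 22), 136 with all 6 groups in 1 fit (68 and 68), 95 with a variance trend (57 and 38), 8 with 1 probe per gene and 258 with the replicate number as a random block (144 and 114), an alternative chosen after seeing the data. Leaving out 1 array gave 0 to 11, with 0 to 1 of the 5 genes among them. The cause of these shifts was not tested. Of the 5 genes, 5 were called with median scaling, 3 with normexp, 4 with all groups in 1 fit, 4 with the trend and 5 with the random block.

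Members of the lists called numbered 2, and 0 under the same 8 alternatives that called no gene, 13 with median scaling, 12 with normexp, 19 with all groups in 1 fit, 14 with the trend, 27 with the random block and 0 to 1 without 1 array. The share of probes bounded within 2-fold was 71.2% to 99.3%. The distance between the means had p = 0.0286 (exact permutation test) with quantile scaling (89.0) and with tested probes only (42.1), where the filter itself uses the BDB and DOS labels and so favours the true labelling. By the same exact permutation test it had p = 0.143 to 0.2 under the other scalings and tables, and 0.0667 to 0.8 without 1 array (90.6 to 104.9). Without 1 array only 15 or 20 labellings exist, so no p below 0.05 was possible there. The 0.0667, without DOS replicate 3, was the smallest p that 15 labellings allow. Leaving out 1 array moved Ppara between -0.0373 (without DOS replicate 1, in place of 0.12) and 0.23 (without DOS replicate 3). Named genes near 0, Pparg and Hprt, changed sign under several alternatives. No scaling moved the median over all genes beyond -0.09.

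The replicate block changed the call of the 5 genes and no other named gene's. Dim probes limit Hnrnph3, Tepp, Rasgef1c, Mob3b, Clu, Il6 and some of the unnamed called probes, and 7 arrays limit every interval.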
